A study of Mus musculus with 6 samples.

Results

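Neuregulin and ErbB signalling was examined through 7 genes fixed by name: the ligand genes Nrg1 and Hbegf, the receptor genes Egfr, Erbb2, Erbb3 and Erbb4, and Errfi1, which encodes a feedback inhibitor of these receptors. All 7 were measured, among 18193 genes that had a probe set of their own. The data came from mouse embryos of mixed background at embryonic day 9.5 (E9.5). Freshly isolated heart tube, caudal-half tissue and yolk sac were sorted for cells with CD31 on their surface and without CD41 and CD45, which enriches endothelium, and sample names carry the tag Wt. There were 2 biological replicates of each tissue, each on its own Affymetrix array, and so 6 arrays. No agent was given. The sources used here do not say how many embryos went into 1 sample.

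ErbB receptors are tyrosine kinases that act in pairs. Neuregulin-1 binds ErbB3 and ErbB4, HB-EGF binds the EGF receptor and ErbB4, ErbB2 has no ligand of its own and serves as partner, and ErbB3 has a weak kinase and signals mainly through its partner. In the embryonic heart, Nrg1 made by the endocardium, the endothelial lining, acts on ErbB2 and ErbB4 of the muscle layer to drive trabeculation. ErbB2 and ErbB3 take part in the conversion of endocardium to cushion mesenchyme, and HB-EGF with the EGF receptor limits the growth of valve primordia. These roles are background and were not measured here.

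Levels are the natural log of the authors' RMA signal, read as RMA log2 values. The base of the scale is unstated. Should the signals be linear instead, each difference and standard error is larger by a factor of 1.44, and the tests against no difference do not change. Between replicates Pearson r was 0.981 to 0.986, and between tissues 0.946 to 0.969. Bacterial control probes, 27 sets in all, spanned 1.33 to 4.03, and values there are called weak. Differences were tested with limma over all 6 arrays, and a gene was called at a Benjamini-Hochberg adjusted p under 0.05 over all 18193 genes. The Gapdh control read higher at the 3' than at the 5' end, a gap that can track how intact the RNA was. This gap was 1.88 and 1.98 in heart tube samples, 1.67 and 1.58 in caudal-half and 2.04 and 1.81 in yolk sac samples. For the Actb control it was -0.06 and 0.01, -0.10 and -0.01, and -0.05 and -0.04 in the same order. The part of these gaps in the results was not tested.

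Of the 7 members, 2 were called higher and 0 lower in heart tube samples than in caudal-half samples, where limma called 2.86% of all genes higher, 2.65% lower and 5.51% in either direction. The 2 were Nrg1 and Erbb3, and 3 members had an unadjusted p under 0.05. Against the yolk sac, 2 members were higher in heart tube samples (Erbb3 and Errfi1) and 0 lower, with 5.14% of all genes higher, 6.67% lower and 11.8% either way, and 4 members had an unadjusted p under 0.05. Between caudal-half samples and yolk sac, 2 members were higher in caudal-half samples (Errfi1 and Hbegf) and 1 lower (Nrg1), with 4.22% of all genes higher, 4.86% lower and 9.08% either way, and 3 members had an unadjusted p under 0.05. The 3 comparisons share arrays. The median difference of the members was 0.02, 0.88 and 0.11 in the 3 comparisons in that order, and that of all genes -0.08, -0.06 and 0.02. With 2 arrays per tissue the values of a pair of tissues often do not overlap: this held for 51.3% of all genes between heart tube and caudal-half samples, for 56.3% between heart tube and yolk sac and for 51.6% between caudal-half samples and yolk sac.

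**Figure D1:**
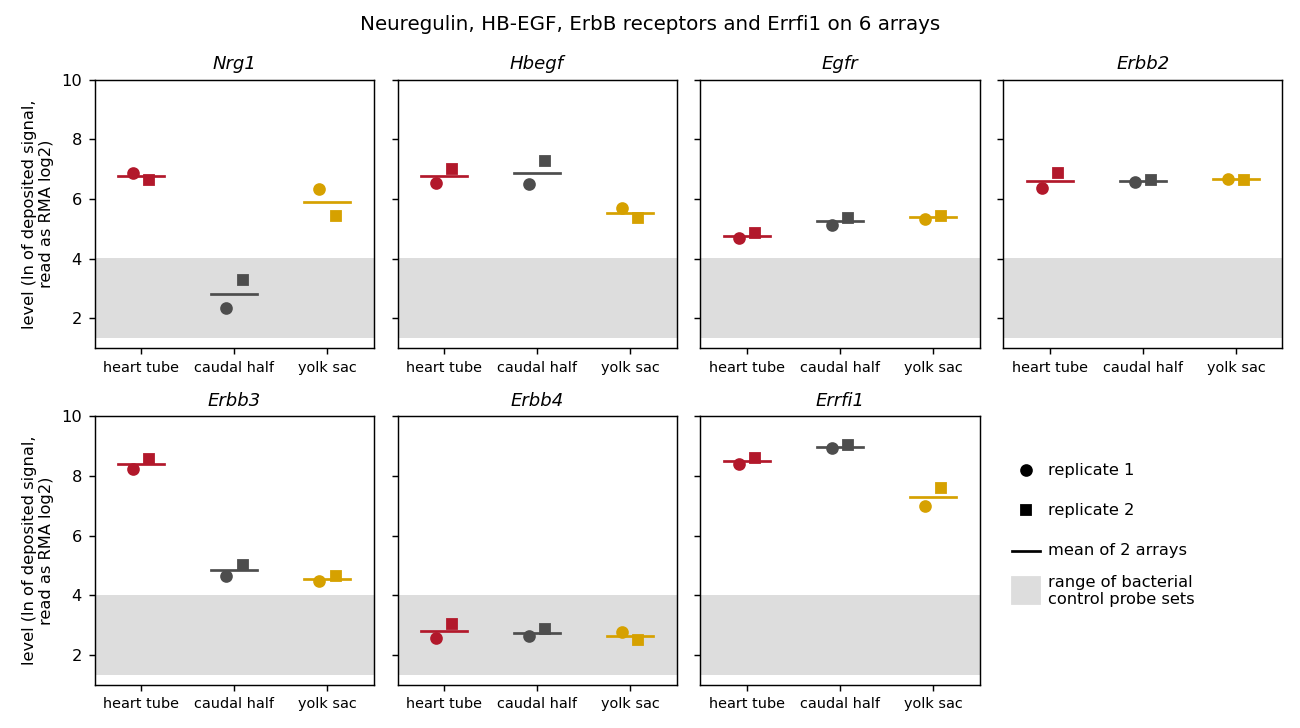
Level of each member on the 6 arrays (vertical axis, natural log of the deposited signal read as RMA log2) in heart tube, caudal-half samples and yolk sac. Points are single arrays, lines the means of 2, and the grey band the range of the bacterial control probe sets (1.33 to 4.03). Nrg1 lies in the band in caudal-half samples only, Erbb3 is high in heart tube samples only, and Erbb4 lies in the band throughout.

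Nrg1, the neuregulin-1 ligand, was high in heart tube samples and weak in caudal-half samples. Its single probe set read 6.88 and 6.64 in heart tube samples, 2.33 and 3.29 in caudal-half samples and 6.34 and 5.42 in yolk sac samples. The values of the heart tube lay above those of both other tissues, and the caudal arrays lay inside the bacterial control range. Nrg1 was higher in heart tube samples than in caudal-half samples by 3.95 ± 0.41 (SE, n = 2 arrays each), with a limma adjusted p of 0.00382 and a 95% interval of 2.97 to 4.92. This was the difference of rank 43 by size among the 18193 genes. Since the caudal signal lay near background, the size of the difference depends on how low the probe set can read. Nrg1 was lower in caudal-half samples than in yolk sac samples by 3.07 ± 0.41 (difference -3.07, limma adjusted p = 0.00769). The difference of heart tube from yolk sac was 0.88 ± 0.41 and did not pass (limma adjusted p = 0.234), with an interval of -0.10 to 1.85. Leaving out 1 array at a time moved it between 0.42 and 1.34. The order of the means was heart tube, yolk sac and caudal-half samples, and the difference between the first 2 did not pass the threshold. Without any single array both calls held, at limma adjusted p of up to 0.0365 and 0.0407. In these bulk samples, fewer cells of a type and less RNA per cell cannot be told apart.

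Hbegf, which encodes the heparin-binding ligand HB-EGF, read lowest in yolk sac samples, and the difference passed against caudal-half samples. The probe set with the highest mean read 6.53 and 7.001 in heart tube samples, 6.49 and 7.27 in caudal-half samples and 5.69 and 5.37 in yolk sac samples. Both yolk sac arrays lay below the other 4, and heart tube and caudal-half samples overlapped. The difference of caudal-half samples from yolk sac was 1.35 ± 0.31 (limma adjusted p = 0.0454), and that of heart tube from yolk sac was 1.24 ± 0.31 and just missed the threshold (limma adjusted p = 0.0502). The call for the caudal-half samples was lost when any array but the first caudal one was left out (limma adjusted p = 0.068 without either heart tube array, 0.153 without the second caudal, 0.107 without the first yolk sac and 0.150 without the second yolk sac array), and also with a block for the replicate number (limma adjusted p = 0.0595). The second probe set of Hbegf read 6.53 and 6.54 in heart tube samples, 6.90 and 7.69 in caudal-half samples and 4.26 and 5.17 in yolk sac samples. It passed in both comparisons over all named probe sets, with differences of 1.82 for heart tube minus yolk sac (limma adjusted p = 0.0313) and 2.58 for caudal-half samples minus yolk sac (0.0136). Heart tube and caudal-half samples differed by -0.11 ± 0.31 (limma adjusted p = 0.889), with an interval of -0.85 to 0.63.

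Egfr, the EGF receptor gene, passed in no comparison. Its brightest probe set read 4.69 and 4.86 in heart tube samples, 5.13 and 5.36 in caudal-half samples and 5.32 and 5.44 in yolk sac samples. Both heart tube arrays were the lowest of the 6, and caudal-half samples and yolk sac overlapped. The difference was -0.60 ± 0.18 for heart tube minus yolk sac (limma adjusted p = 0.0807) and -0.47 ± 0.18 for heart tube minus caudal-half samples (0.215), and -0.13 ± 0.18 for caudal-half samples minus yolk sac (0.726). Egfr has 7 probe sets here. The second also read lowest in heart tube samples, at 4.26 and 4.34, against 4.54 and 4.70 in caudal-half samples and 4.54 and 4.72 in yolk sac samples, while the other 5 lay inside the bacterial control range on 5 or 6 of the arrays.

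Erbb2, the partner receptor, read nearly alike in all tissues. Its only probe set read 6.37 and 6.87 in heart tube samples, 6.56 and 6.64 in caudal-half samples and 6.67 and 6.65 in yolk sac samples. The 2 heart tube arrays enclosed the other 4. The differences were 0.02 (95% interval -0.48 to 0.52) for heart tube minus caudal-half samples, -0.04 (-0.54 to 0.46) for heart tube minus yolk sac and -0.06 (-0.56 to 0.44) for caudal-half samples minus yolk sac, with limma adjusted p of 0.970, 0.933 and 0.905. Differences inside these intervals are not excluded by 2 arrays per tissue.

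Erbb3, the neuregulin receptor with a weak kinase, stood out in heart tube samples. The probe set with the higher mean read 8.23 and 8.58 in heart tube samples, 4.65 and 5.03 in caudal-half samples and 4.49 and 4.63 in yolk sac samples. Both heart tube arrays lay far above the other 4, none of which was inside the bacterial control range. Erbb3 was higher in heart tube samples by 3.57 ± 0.21 than in caudal-half samples (SE, limma adjusted p = 0.000679) and by 3.85 ± 0.21 than in yolk sac samples (0.000236), which corresponds to 11.9-fold and 14.4-fold on the scale used. These differences ranked 63 and 88 by size among all genes. The second probe set gave the same order at a lower level. It read 5.58 and 6.33 in heart tube samples, 2.96 and 3.41 in caudal-half samples and 2.72 and 3.28 in yolk sac samples, with differences of 2.77 and 2.96 (limma adjusted p of 0.00878 and 0.00390 over all named probe sets). All 4 of its caudal and yolk sac arrays lay inside the bacterial control range, so the sizes of these 2 differences depend on how low the probe set can read. Caudal-half samples and yolk sac differed by 0.28 ± 0.21 (limma adjusted p = 0.502), with an interval of -0.24 to 0.80. Both heart tube calls held without any single array, at limma adjusted p of up to 0.00836 and 0.00344.

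Erbb4, the other neuregulin receptor, gave no signal above background. Its single probe set read 2.56 and 3.03 in heart tube samples, 2.64 and 2.86 in caudal-half samples and 2.77 and 2.51 in yolk sac samples. All 6 values lay inside the bacterial control range, and the 3 tissues overlapped. The differences were 0.04, 0.15 and 0.11 (limma adjusted p of 0.942, 0.722 and 0.834). With 1 probe set in this range, the arrays show only that Erbb4 was not detectable above background by this probe set.

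**Figure D2:**
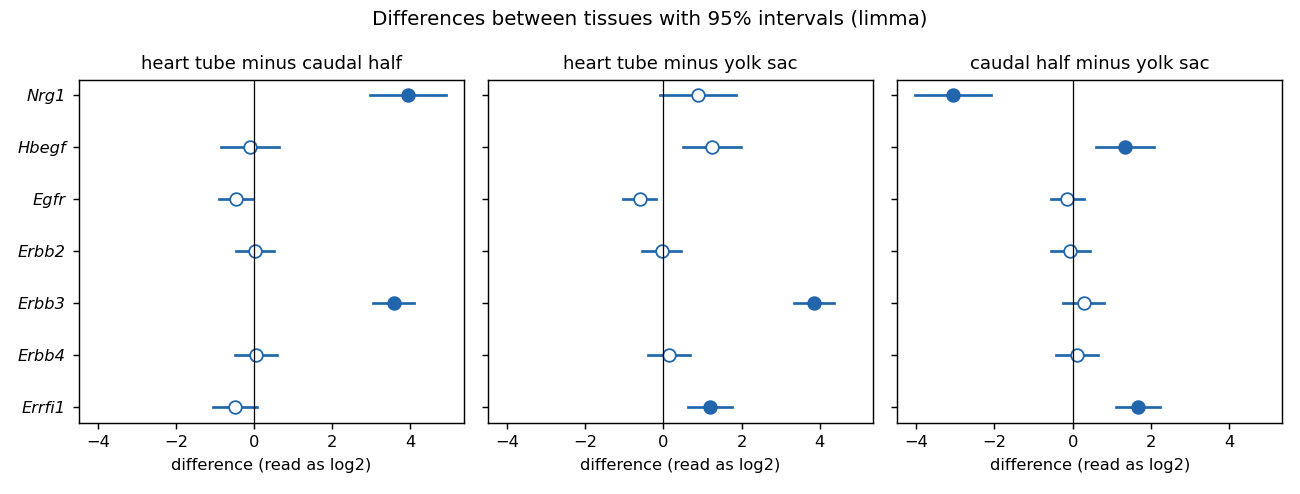
Difference between tissue means for each member (horizontal axis, read as log2) in the 3 comparisons, with 95% intervals from limma over 6 arrays. Filled points were called at an adjusted p under 0.05: Nrg1 and Erbb3 for heart tube minus caudal-half samples, Erbb3 and Errfi1 for heart tube minus yolk sac, and Nrg1, Hbegf and Errfi1 for caudal-half samples minus yolk sac.

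Errfi1 encodes a cytoplasmic protein, also called Mig6, that binds the kinase domains of EGF receptor family members and blocks them, and it is itself induced by receptor signalling. It was lowest in yolk sac samples. Its brighter probe set read 8.39 and 8.59 in heart tube samples, 8.94 and 9.03 in caudal-half samples and 7.01 and 7.61 in yolk sac samples. No 2 tissues overlapped, and the order was caudal-half samples, heart tube and yolk sac. Errfi1 was higher by 1.68 ± 0.24 in caudal-half samples than in yolk sac samples (SE, limma adjusted p = 0.00981) and by 1.19 ± 0.24 in heart tube samples than in yolk sac samples (0.0238). Heart tube minus caudal-half samples was -0.49 ± 0.24 and did not pass (limma adjusted p = 0.320). The second probe set read 5.92 and 5.97 in heart tube samples, 7.02 and 6.43 in caudal-half samples and 4.33 and 4.85 in yolk sac samples. It passed in the same 2 comparisons, with differences of 2.14 for caudal-half samples minus yolk sac (limma adjusted p = 0.00914) and 1.35 for heart tube minus yolk sac (0.0299). The call of heart tube against yolk sac was lost without the first heart tube (limma adjusted p = 0.0889), the second heart tube (0.126) or the first yolk sac array (0.0763). That of caudal-half samples against yolk sac was lost without the first (0.0550) or the second caudal array (0.0583).

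From RefSeq (GRCm38.p6), 5 windows of 300 bases were read for 4 of the members (Egfr, Erbb2, Erbb4 and Errfi1). Each ran from 250 before to 50 after the annotated start. The set of windows used held none for Nrg1 or Erbb3, and member windows on a chromosome that was set aside were not read. A member without a window here may still have one in RefSeq. The 2 windows of Errfi1, both on the + strand, are shown because Errfi1 was the called member among those read and because its 2 starts differ. Capitals mark matches to the motifs searched. The first window is chr4:150853546-150853845 and the second chr4:150854820-150855119.
Errfi1 first start: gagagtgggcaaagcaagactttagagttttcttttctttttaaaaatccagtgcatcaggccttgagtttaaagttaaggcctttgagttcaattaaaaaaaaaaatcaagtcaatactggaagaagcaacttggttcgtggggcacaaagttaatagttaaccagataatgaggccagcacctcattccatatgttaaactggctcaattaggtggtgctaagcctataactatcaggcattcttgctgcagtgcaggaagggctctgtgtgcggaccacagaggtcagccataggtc
Errfi1 second start: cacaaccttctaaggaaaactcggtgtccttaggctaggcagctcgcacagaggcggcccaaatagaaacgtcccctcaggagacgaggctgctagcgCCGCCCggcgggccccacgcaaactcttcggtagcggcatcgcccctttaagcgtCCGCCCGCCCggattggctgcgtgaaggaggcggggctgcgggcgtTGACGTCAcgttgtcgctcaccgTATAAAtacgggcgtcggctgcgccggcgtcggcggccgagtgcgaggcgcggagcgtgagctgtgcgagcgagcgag

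The first window was 42.0% G and C and held none of the 6 motifs, which were searched on both strands. The second was 66.7% G and C. It held the cyclic AMP response element TGACGTCA, which begins 51 bases before the start, 3 GC boxes (GGGCGG, 2 of them overlapping) and the TATA box letters TATAAA, which begin 28 bases before the start. Among all 32851 windows of this length, 1.79% held TGACGTCA, 35.7% GGGCGG and 13.6% TATAAA. Neither window of Errfi1 held the AP-1 letters TGANTCA (7.81% of windows), the ETS letters CCGGAAG (8.86%) or a CArG box (1.63%). The Egfr window held 1 GC box and 1 ETS match, and those of Erbb2 and Erbb4 none of the 6. These are matches of letters only.

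**Figure D3:**
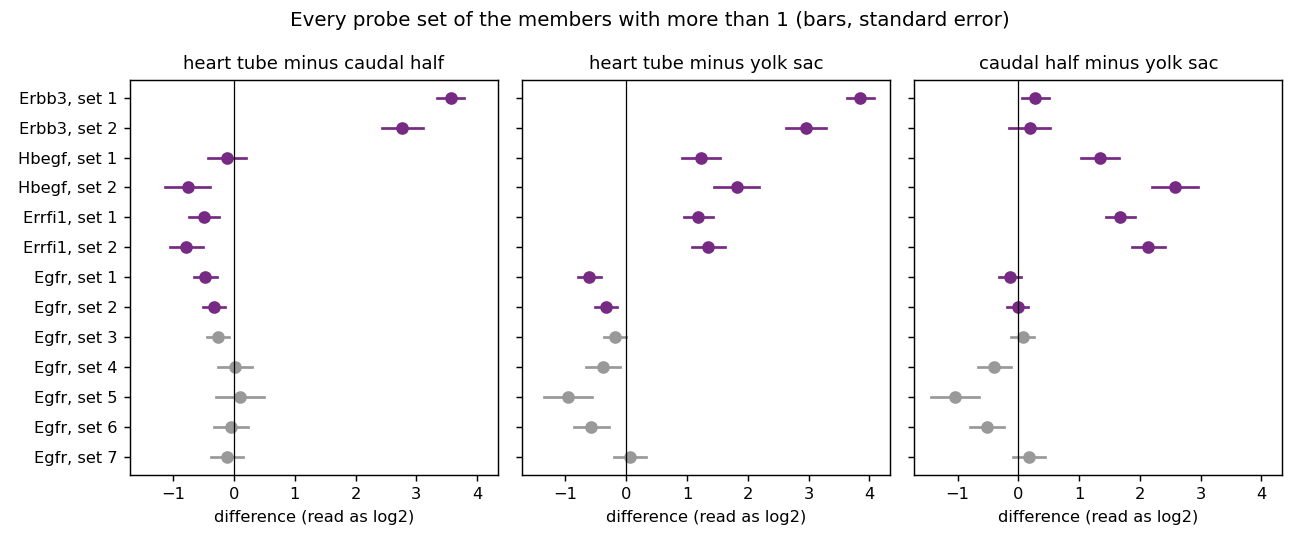
Difference for every probe set of the 4 members that have more than 1 (horizontal axis, read as log2; bars are limma standard errors), numbered from the highest mean down. Grey probe sets lay within the bacterial control range on 5 or 6 arrays. Both probe sets of Erbb3, of Hbegf and of Errfi1 lie on the same side of 0 in every comparison, and none of the 7 of Egfr was called.

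The patterns of the 4 called members were set against those of 3819 other genes whose SD over the 6 arrays was at least 0.5. The genes most like Erbb3 were Fbln2, Fam167a and Corin (Pearson r of 0.998, 0.998 and 0.997 over 6 arrays). Fbln2, which encodes the matrix protein fibulin-2, read 6.71 and 7.13 in heart tube samples, against 2.45 and 3.25 in caudal-half samples and 2.40 and 2.79 in yolk sac samples. For all 3 of these genes the caudal and yolk sac arrays lay inside the bacterial control range. Those most like Nrg1 were Fam210b, Rnf157 and Zbtb4 (0.994, 0.992 and 0.992). Nearest to Hbegf were Tlcd5, Pcolce2 and the chemokine gene Cxcl1 (0.988, 0.986 and 0.985), and nearest to Errfi1 were Ftsj3, Crmp1 and Zfp566 (0.997, 0.996 and 0.993). Such values are common with 6 arrays in 3 tissues: r was 0.95 or more for 177 genes with Erbb3, 41 with Nrg1, 28 with Hbegf and 90 with Errfi1. Errfi1 and Hbegf correlated with each other at 0.86 over the 6 arrays, as a description of arrays that share tissues.

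Other genes of the pathway were read from 5 lists of 59 genes, of which 52 were measured. Over all 52, limma called 1 higher and 9 lower in heart tube samples than in caudal-half samples, 5 higher and 6 lower in heart tube samples than in yolk sac samples, and 7 higher and 1 lower in caudal-half samples than in yolk sac samples. Of all genes, 2.86% were higher and 2.65% lower, 5.14% and 6.67%, and 4.22% and 4.86% in that order. Of the 8 other ligand genes of the EGF family that were measured, 0 passed limma's threshold in any comparison. Egf, Btc, Ereg, Epgn and Nrg3 lay inside the bacterial control range on all 6 arrays. The other 3 were above it, as for Nrg2, a further neuregulin gene, which read 5.67 and 5.34 in heart tube samples, 5.55 and 5.48 in caudal-half samples and 5.41 and 5.55 in yolk sac samples. Nrg4 and Tgfa were uncalled as well.

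Among 8 genes of ligand shedding, 0 were higher and 1 lower in heart tube samples than in caudal-half samples, and 1 higher and 1 lower than in yolk sac samples. Adam12, a metalloprotease known to release HB-EGF, read 10.47 and 10.70 in heart tube samples, 11.38 and 11.60 in caudal-half samples and 12.18 and 12.12 in yolk sac samples. It was lower in heart tube samples than in yolk sac samples (-1.56 ± 0.18, limma adjusted p = 0.00313) and than in caudal-half samples (-0.91, 0.0389). The second of these calls was lost when any of the 6 arrays was left out. The other probe set of Adam12, above the bacterial control range, was called with the same sign in both comparisons. Adam19, a metalloprotease that cleaves neuregulin and is needed in heart valve development, was higher in heart tube samples than in yolk sac samples (0.94 ± 0.16, 0.0140), a call lost without 3 of the 6 arrays in turn, and its other probe set was not called. It read 9.85 and 9.82 in heart tube samples, 9.09 and 9.12 in caudal-half samples and 8.97 and 8.82 in yolk sac samples. Adam9, of the same family, was lower in caudal-half samples than in yolk sac samples (-1.50, limma adjusted p = 0.0496), which was lost without 5 of the 6 arrays in turn.

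Lrig1, which encodes a membrane protein that promotes the breakdown of ErbB receptors, was the 1 called gene among 9 of receptor turnover and inhibition. It read 10.19 and 9.88 in heart tube samples, 8.48 and 7.85 in caudal-half samples and 8.10 and 7.73 in yolk sac samples. Both heart tube arrays lay above the other 4. Lrig1 was higher by 1.88 ± 0.27 than in caudal-half samples (SE, limma adjusted p = 0.0134) and by 2.12 ± 0.27 than in yolk sac samples (0.00484). The first call was lost without the second caudal array or either one of heart tube (limma adjusted p of up to 0.0931), and the second held without any single array. Of its 2 other probe sets, both above the bacterial control range, 1 was called in each of these comparisons with the same sign. The remaining one had the opposite sign against caudal-half samples and the same sign against the yolk sac, and was called in neither. The median difference of the 9 genes was 0.02 against the caudal-half samples and 0.28 against the yolk sac.

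Of 12 measured adaptors and kinases, 0 passed between heart tube and caudal-half samples. In heart tube samples Ptpn11, the phosphatase SHP2, was higher than in yolk sac samples (0.72, limma adjusted p = 0.0367) and Pik3r1, a regulatory subunit of PI3 kinase, lower (-0.78, 0.0472). Both calls were lost without 5 or 6 of the 6 arrays in turn and with the replicate block (limma adjusted p of 0.0600 and 0.0651). In this comparison all 3 other probe sets of Pik3r1 were called with the same sign, and 0 of the 2 others of Ptpn11. Src, the kinase, was higher in caudal-half samples than in yolk sac samples (2.38 ± 0.46, limma adjusted p = 0.0272). It read 8.37 and 7.07 in caudal-half samples against 4.92 and 5.76 in yolk sac samples. This call was lost with the replicate block (0.0522) and without 4 of the arrays in turn. The other Src probe set was called with the same sign.

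The ERK cascade is a main route below ErbB receptors, and also below other receptors such as those of FGF and VEGF. Of 15 feedback and target genes of the cascade, 8 were lower and 0 higher in heart tube samples than in caudal-half samples. Of all genes, 2.65% were lower and 2.86% higher. The median difference was -0.93 against -0.08 for all genes. The 8 included Ier3, an immediate early gene (-2.39 ± 0.16, limma adjusted p = 0.000966), the Sprouty genes Spry1 (-2.31 ± 0.35) and Spry4 (-1.50 ± 0.20), which encode inhibitors of the cascade, and the ERK phosphatase gene Dusp6 (-0.98 ± 0.16), chosen after its values were seen. Ier3 read 6.34 and 6.28 in heart tube samples, 8.63 and 8.76 in caudal-half samples and 7.13 and 7.20 in yolk sac samples. Spry4 read 5.93 and 5.79 in heart tube samples, 7.57 and 7.17 in caudal-half samples and 7.15 and 7.01 in yolk sac samples. Neither gene's heart tube values overlapped those of another tissue. Fewer than 8 of the 15 were called lower when any 1 of the 6 arrays was left out, and genes called then need not be among the 8. The Ier3 call held without any single array.

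**Figure D4:**
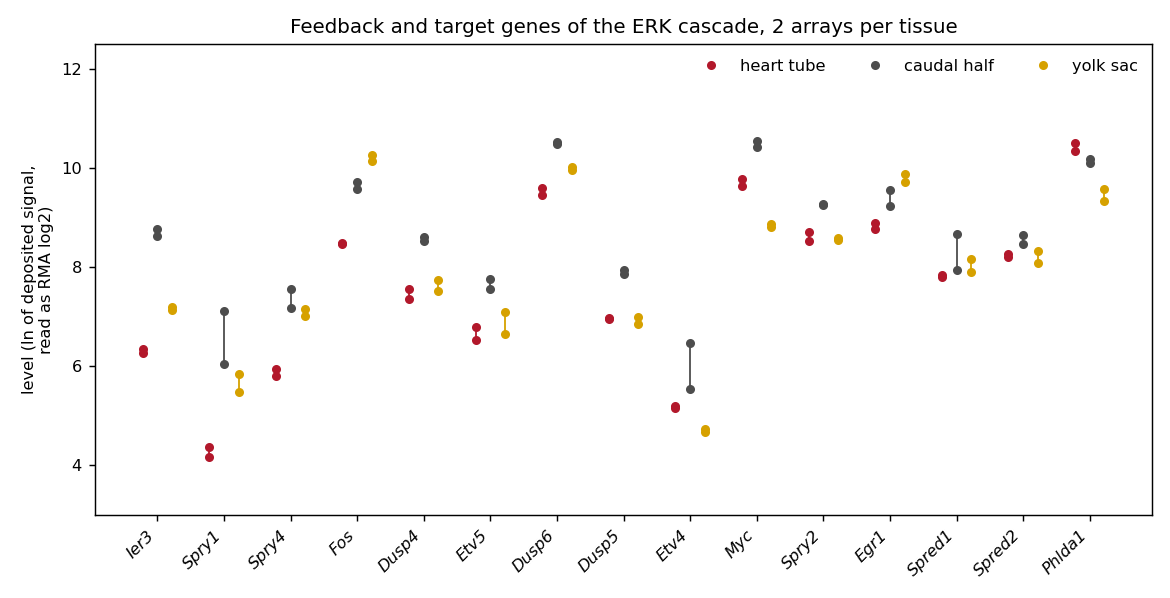
Level of 15 feedback and target genes of the ERK cascade (vertical axis, natural log of the deposited signal read as RMA log2), with 2 arrays per tissue joined by a line, ordered by the difference of heart tube from caudal-half samples. For the genes at the left, such as Ier3, Spry1 and Spry4, the heart tube arrays lie lowest.

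Against the yolk sac the same 15 genes split. In heart tube samples 4 were lower (Fos, Spry4, Egr1 and Ier3) and 2 higher (Phlda1 and Myc), with a median difference of -0.21 against -0.06 for all genes. Of all genes, 6.67% were lower and 5.14% higher. The immediate early gene Fos read 8.49 and 8.47 in heart tube samples, 9.71 and 9.58 in caudal-half samples and 10.14 and 10.25 in yolk sac samples, a difference from the yolk sac of -1.71 ± 0.16 (limma adjusted p = 0.00156). Without either heart tube array or the first yolk sac array 1 of the 4 stayed called, and without the second yolk sac array 2. Between caudal-half samples and yolk sac, 6 were higher in caudal-half samples and 0 lower, beside 4.22% and 4.86% of all genes. The median was 0.70 against 0.02. The 6 were led by Myc (1.64 ± 0.16, limma adjusted p = 0.00312), Ier3 (1.53 ± 0.16) and Etv4 (1.30 ± 0.30, limma adjusted p = 0.0476). The Etv4 call was lost with the replicate block (limma adjusted p = 0.0544) and without 5 of the 6 arrays in turn (up to 0.148), and those of Myc and Ier3 held without any single array. With any 1 of the 6 arrays left out, fewer than 6 were called.

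Markers of the sorted and of other cells were read beside these results. Pecam1, which encodes CD31, read 9.49 and 9.61 in heart tube samples, 10.08 and 9.82 in caudal-half samples and 10.09 and 9.82 in yolk sac samples, and all 15 pan-endothelial genes lay above the bacterial controls on all arrays. Ptprc, which encodes CD45, lay within the control range on all arrays, while Itga2b, which encodes CD41, read 6.81 and 6.93 in heart tube samples, 6.80 and 6.42 in caudal-half samples and 8.37 and 8.18 in yolk sac samples. Pan-endothelial genes were lower in heart tube samples than in caudal-half samples in 5 of 15 cases and higher in 1, and lower than in yolk sac samples in 9 and higher in 0. Against caudal-half samples, the calls of Emcn, Egfl7 and Esam were lost with the replicate block and without any of the 6 arrays in turn. That of Robo4 was lost only without the first caudal array, and that of Cldn5 held throughout. The higher gene, Eng, lost its call without 4 of the 6 arrays in turn.

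Where Erbb3 and Nrg1 were high, in heart tube samples, so were genes of several cell types. Nrg1 also read 6.34 and 5.42 in yolk sac samples, and it did not pass between these tissues. All 6 endocardial genes were higher in heart tube samples than in caudal-half samples and 5 of 6 than in yolk sac samples. Their summed level, the log2 of the summed antilogs, was 13.09 and 12.97 in heart tube samples, 9.46 and 9.28 in caudal-half samples and 10.47 and 10.38 in yolk sac samples. Of 9 cushion mesenchyme genes, 6 were higher in either comparison, led by Has2 (5.69 and 6.18, with both yolk sac arrays inside the bacterial control range), and the summed level was 13.04 and 13.05 in heart tube samples, 9.52 and 9.63 in caudal-half samples and 10.57 and 10.14 in yolk sac samples. Of 16 cardiomyocyte genes, 7 were higher than in caudal-half samples and 9 higher than in yolk sac samples, with summed levels of 11.71 and 11.73 in heart tube samples, 9.72 and 9.81 in caudal-half samples and 8.93 and 8.87 in yolk sac samples. Of these, Nkx2-5 and Ryr2 lay within the bacterial control range on all 6 arrays. Of 6 neural crest and glial genes, 1 was higher in each comparison (Ednrb, 3.60 and 1.96), Sox10 read 4.61 and 4.79 in heart tube samples, 5.10 and 5.11 in caudal-half samples and 5.14 and 5.21 in yolk sac samples, and Foxd3 and Tfap2b lay within the control range on all 6 arrays. The summed level of that list was 9.84 and 9.91 in heart tube samples, 7.18 and 7.64 in caudal-half samples and 8.69 and 8.08 in yolk sac samples. In heart tube samples this sum came mostly from Ednrb, which alone read 9.70 and 9.77. The median difference of the list was -0.03 against caudal-half samples and -0.21 against yolk sac samples. The part of these cells in the differences of Erbb3, Nrg1 and Lrig1 was not tested.

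**Figure D5:**
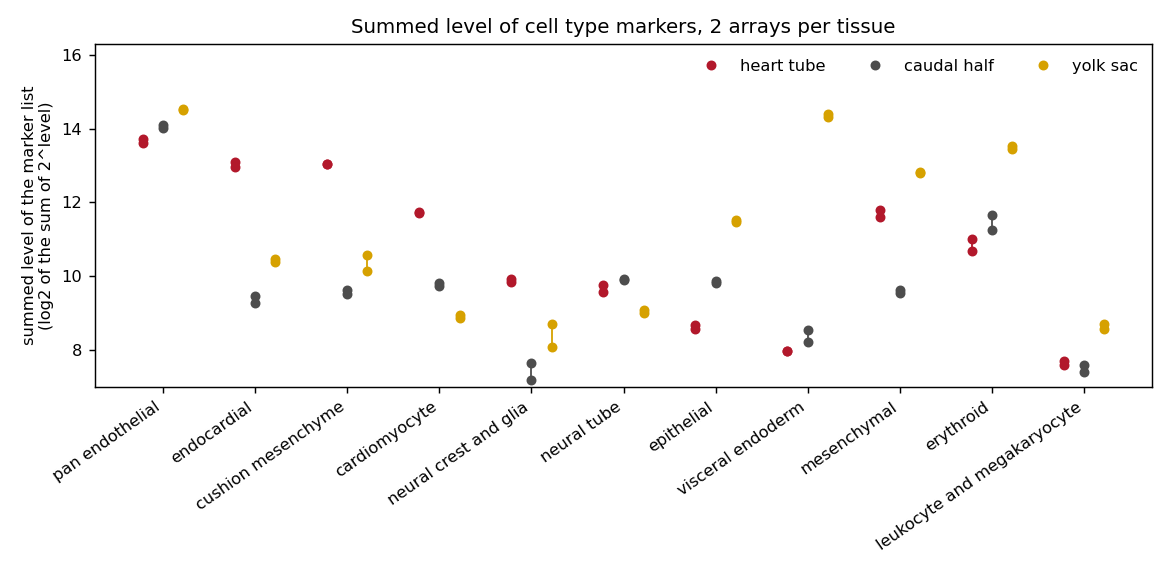
Summed level of each list of cell type markers (vertical axis, log2 of the sum of 2 to the power of each level) with 2 arrays per tissue joined by a line. Endocardial, cushion and cardiomyocyte lists lie highest in heart tube samples, and visceral endoderm, epithelial and erythroid lists highest in yolk sac samples.

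In yolk sac samples, where Hbegf and Errfi1 were lowest, markers of visceral endoderm, the epithelium around yolk sac vessels, were high. Of 10 such genes, 9 were lower in heart tube samples and 9 lower in caudal-half samples than in yolk sac samples, with the largest differences for Rbp4 (-7.91) and Ttr (-7.94) in that order of comparison. Both heart tube arrays lay inside the bacterial control range for Rbp4, so the size of that difference depends on how low its probe set can read. Their summed level was 7.96 and 7.98 in heart tube samples, 8.52 and 8.21 in caudal-half samples and 14.32 and 14.39 in yolk sac samples. Erythroid genes had summed levels of 10.995 and 10.69 in heart tube samples, 11.65 and 11.24 in caudal-half samples and 13.45 and 13.54 in yolk sac samples, and against the yolk sac 3 of 7 were lower and 1 higher in heart tube samples, and 4 of 7 lower and 0 higher in caudal-half samples. Epithelial genes were lower in heart tube samples in 5 of 9 cases against the caudal-half samples and in 6 of 9 against the yolk sac, with summed levels of 8.67 and 8.55 in heart tube samples, 9.82 and 9.85 in caudal-half samples and 11.53 and 11.46 in yolk sac samples. Of 7 mesenchymal genes, 2 were higher and 3 lower in heart tube samples than in yolk sac samples, and 2 higher and 4 lower in caudal-half samples than in yolk sac samples. Against caudal-half samples, 3 were higher (Pdgfra, Col3a1 and Tcf21) and 1 lower (Foxf1) in heart tube samples. Lum, a matrix gene, read 2.92 and 3.07 in heart tube samples, inside the bacterial control range, 5.44 and 4.07 in caudal-half samples and 8.97 and 8.42 in yolk sac samples. The collagen gene Col1a1 read 7.53 and 7.74 in heart tube samples, 8.42 and 8.12 in caudal-half samples and 12.21 and 12.16 in yolk sac samples. The summed level of the mesenchymal list was 11.61 and 11.78 in heart tube samples, 9.61 and 9.54 in caudal-half samples and 12.83 and 12.80 in yolk sac samples. Neural tube genes were mixed, with 1 higher (Tubb3) and 2 lower (Sox2 and Nes) in heart tube samples than in caudal-half samples. The Nes call (limma adjusted p = 0.0377) was lost with the replicate block (0.0613) and without any of the 6 arrays in turn (up to 0.187). The part of these cells in the differences of all members and of the ERK genes was not tested.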

How the data were processed

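Per the submitters' processing notes, the authors ran RMA in affy, and deposited 1 signal per probe set and array. No version or chip definition is named in the sources used here. The signals ran from 2.46 to 2172540, above the 65535 that a 16-bit scanner can give, while their natural log spans 0.899 to 14.6, as RMA log2 values do, so the natural log was taken.

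Of 45101 probe sets, 64 were controls, 34945 others had 1 gene symbol in the platform annotation, 932 several and 9160 none. A gene was represented by its probe set with the highest mean over 6 arrays. A mean per tissue was fitted by lmFit and eBayes of limma 3.58.1 under R 4.3.3 (3 residual and 3.48 prior degrees of freedom) without a covariate, two-sided, and all probe sets of the members were also fitted singly. Standard errors of differences had a median of 0.21, and 2 arrays per tissue limit the precision. Deviations of arrays with the same replicate number correlated at 0.0468, -0.00681 and 0.0189 across genes, so the numbers were not taken as pairs. The fit was tested on simulated data. Alternatives were the replicate block, each array left out, other probe set rules, no dim genes, log2 scaling, quantile normalization, another prior and only the arrays compared.

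The members and the gene lists were chosen with earlier results of these data known. Text names the members, the genes of the sort and the 3 genes most correlated with each called member. By size, it names up to 3 called genes per pathway list and comparison, and 2 per marker list and comparison. Other genes are given as counts, or are named outside this rule with their values known, such as Dusp6, Nrg2, Sox10, Emcn, Egfl7, Esam and Eng. Listed genes without a probe set of their own were not analysed here.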

Additional observations from a re-analysis of the deposited data

How the results depend on the processing

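Of 291 values of the 21 member differences under the alternatives, 261 kept direction and side of the threshold. The calls of Nrg1 and Erbb3 held in all of them. Hbegf in heart tube minus yolk sac passed at 1.53 with the mean of its probe sets and at 1.24 without dim genes, with the trend and robust prior and with only the 4 arrays compared. In caudal-half tissue minus yolk sac it was 1.35 and did not pass with the replicate block, with every probe set tested or with only the 4 arrays compared, which left 1 member higher there. Erbb2 in heart tube minus caudal-half tissue was -0.036 with quantile normalization. Erbb4 has no value without dim genes, since it is one. The replicate block changed no other member call. It lowered pathway genes in caudal-half tissue minus yolk sac to 4 higher and 0 lower, and genes without the dim ones held 2 pathway genes higher in heart tube minus caudal-half tissue. Samples with the same replicate number share only the number.

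With every probe set tested, 850 were higher in heart tube minus caudal-half tissue, 1632 higher in heart tube minus yolk sac and 1346 lower in caudal-half tissue minus yolk sac. In the last, the trend and robust prior gave 1214 higher and the 4 arrays alone 475.

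Leaving out 1 array at a time gave the following ranges. In heart tube minus caudal-half tissue, genes called were 208 to 493 higher and 168 to 406 lower, pathway genes 0 to 1 higher and 1 to 7 lower, ERK genes 1 to 7 lower, Erbb2 -0.22 to 0.27, Erbb4 -0.19 to 0.28 and Hbegf -0.50 to 0.27. In heart tube minus yolk sac, genes called were 387 to 764 higher and 549 to 1030 lower, members 1 to 3 higher, pathway genes 1 to 4 higher and 2 to 7 lower, ERK genes 0 to 2 higher and 1 to 5 lower, Erbb2 -0.29 to 0.21, Erbb4 -0.085 to 0.39, Nrg1 0.42 to 1.34, Hbegf 1.00 to 1.47 and Errfi1 0.88 to 1.49. In caudal-half tissue minus yolk sac, genes called were 222 to 475 higher and 416 to 680 lower, members 0 to 1 higher, pathway genes 2 to 5 higher and 0 to 1 lower, ERK genes 2 to 4 higher, Erbb4 -0.021 to 0.24, Erbb3 0.088 to 0.47, Egfr -0.25 to -0.017, Hbegf 0.96 to 1.74 and Errfi1 1.38 to 1.98. The other member ranges kept their sign. Fewer arrays leave fewer degrees of freedom; other causes were not tested. The alternatives for the ERK genes and the left-out arrays for pathway genes were added after seeing the data.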
